A study of Mus musculus with 3 samples.

Results

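The 10 genes described here, *Bnip3*, *Bnip3l*, *Ddit4*, *Ndrg1*, *Ankrd37*, *Adm*, *Kdm3a*, *Higd1a*, *Mxi1* and *Stc2*, are hypoxia response genes that lie outside glycolysis. They were chosen by name, with earlier results of these data known, and their probes were found through the RefSeq accessions that the array files carry. They made up 10 of the 22911 mouse genes that could be named on the array, and 11 of 56605 probes, *Bnip3l* having a pair of probes and each other gene a single one. Messenger RNA levels were compared over 3 cell lines: the mouse colon tumor line Colon26 and its derivatives LuM1, which metastasizes readily, and NM11, which metastasizes little. All 3 lines carry the labels BALB/c strain and female, and no age, gene deletion or drug was recorded for any of them. Each was kept in the same serum-containing RPMI1640 medium for 3 days in flat culture, and no low-oxygen treatment is recorded. Total RNA of 0.1 µg was labelled with Cy3, and there was 1 array per line and 3 in all, so each line stands for 1 culture of 1 cell population and no difference has a replicate check. The study set LuM1 beside NM11 and Colon26 to find what distinguishes the metastatic cells. From microarray probes it also compared *Hif1a* and other hypoxia-related genes between LuM1 and Colon26, and it reported *Hif1a* as higher in LuM1. Its measurements of hypoxia in LuM1 aggregates were not analysed here.

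In cells short of oxygen, the α subunits of the hypoxia-inducible factors (HIF) escape hydroxylation and breakdown, pair with ARNT and bind short DNA elements near their target genes. Glucose transport and glycolysis are the textbook output of this pathway, but other targets act on mitochondria, growth signalling, chromatin and secreted signals. BNIP3 and BNIP3L mark mitochondria for mitophagy, and HIGD1A is a small protein of the inner mitochondrial membrane. DDIT4 (REDD1) restrains mTORC1 through the TSC complex, and MXI1 competes with MYC for MAX. KDM3A removes methyl groups from histone H3 lysine 9, NDRG1 is a stress-responsive cytoplasmic protein known as a metastasis suppressor in several tumors, and ANKRD37 is an ankyrin repeat protein. Adrenomedullin (ADM) and stanniocalcin 2 (STC2) are secreted.

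The DNA upstream of 4 of these genes is shown because they differed most between the lines or, for *Bnip3*, held the most matches to the hypoxia response element core. The core was searched as ACGTG and GCGTG on both strands, so that a match on the opposite strand reads CACGT or CACGC. Capitals mark every match, in the 250 bases before the start of transcription from RefSeq, build GRCm38.p6, read 5′ to 3′ on the strand of the gene.
Bnip3, chr7:138909507-138909756, minus strand: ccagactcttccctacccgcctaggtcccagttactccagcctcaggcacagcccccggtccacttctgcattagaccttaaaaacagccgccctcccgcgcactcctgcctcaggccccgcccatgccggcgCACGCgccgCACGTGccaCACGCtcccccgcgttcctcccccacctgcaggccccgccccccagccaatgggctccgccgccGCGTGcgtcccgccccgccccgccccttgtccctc
Ankrd37, chr8:45999851-46000100, minus strand: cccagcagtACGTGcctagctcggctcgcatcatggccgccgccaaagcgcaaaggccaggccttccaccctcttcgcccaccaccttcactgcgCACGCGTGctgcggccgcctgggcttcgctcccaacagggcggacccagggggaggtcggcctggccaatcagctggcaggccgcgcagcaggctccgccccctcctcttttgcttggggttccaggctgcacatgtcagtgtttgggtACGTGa
Adm, chr7:110627407-110627656, plus strand: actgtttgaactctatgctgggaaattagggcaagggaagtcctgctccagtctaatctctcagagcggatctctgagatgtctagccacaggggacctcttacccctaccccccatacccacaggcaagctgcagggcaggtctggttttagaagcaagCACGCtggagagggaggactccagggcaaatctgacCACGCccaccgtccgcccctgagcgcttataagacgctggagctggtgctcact
Stc2, chr11:31370062-31370311, minus strand: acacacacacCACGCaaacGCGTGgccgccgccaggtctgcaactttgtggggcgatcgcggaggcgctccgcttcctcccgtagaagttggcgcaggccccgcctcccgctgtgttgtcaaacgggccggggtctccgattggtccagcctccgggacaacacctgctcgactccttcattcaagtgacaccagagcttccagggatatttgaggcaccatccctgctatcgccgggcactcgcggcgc
The *Bnip3* promoter held 5 matches, of which 2 are both strands of a single palindrome whose match on the gene's strand begins 107 bases upstream of the start. The *Ankrd37* promoter held 4, including an overlapping pair on opposite strands and 1 that begins 6 bases upstream. Both matches of *Adm* lay on the opposite strand, beginning 90 and 54 bases upstream, and the 2 of *Stc2* lay 240 and 231 bases upstream.

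Over the whole window of 300 bases, which adds the first 50 bases of the transcript, the promoter table held 12 start sites for 8 of the 10 genes, with no entry matched for *Bnip3l* and *Ndrg1*. *Higd1a* had 3 matches, 1 of them downstream of the start, and *Ddit4* had 2. *Kdm3a* had 1 match in 1 of its 3 listed promoters, and *Mxi1* had 1 in each of 2 of its 3. At least 1 match was present in 9 of the 12 promoters (75%), against 43.77% of the 32851 mouse promoters in the table, and at least 2 matches in 6 of 12, against 20.64%. The cores are rich in G and C, and so were these promoters, with a median GC content of 66.83% against 52.67% over all promoters. Among the promoters with at least the 49% GC of the lowest of the 12, 55.46% held 1 or more matches and 28.48% held 2 or more. That cut does not match the median of 66.83%, and some windows of *Kdm3a* and of *Mxi1* overlap. Whether GC content accounts for the shares was not tested. A match is a stretch of letters and was not tested as a binding site.

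**Figure D1:**
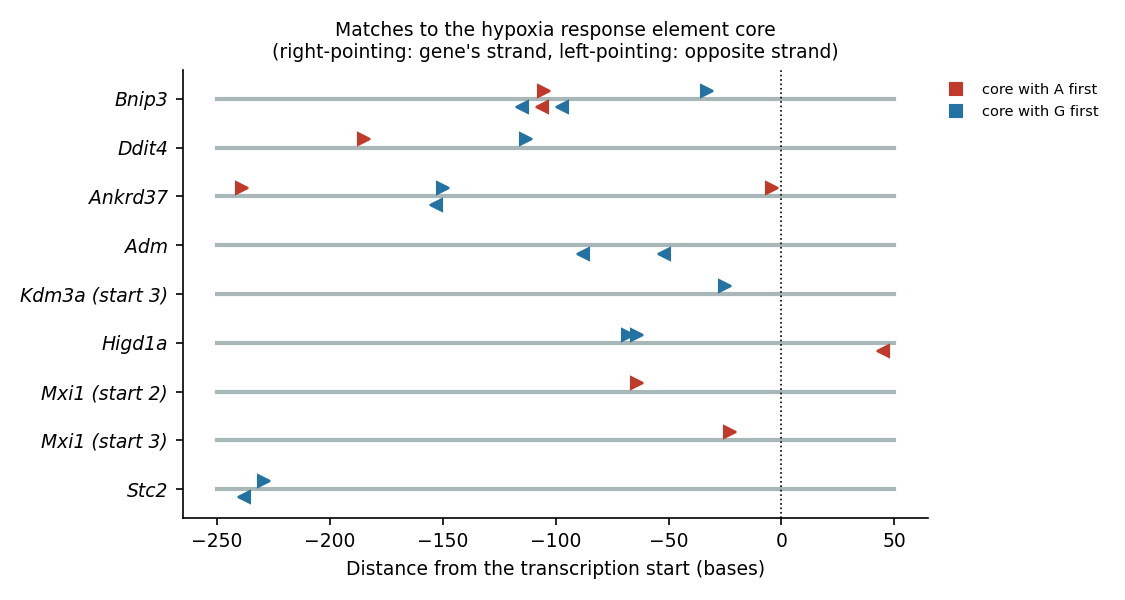
Matches to the hypoxia response element core in the 9 promoters of the described genes that held any, by distance from the transcription start in bases. Arrowheads that point right are on the gene's strand and those that point left on the opposite strand, red marks the core that begins with A and blue the core that begins with G. The 5 matches of *Bnip3* lie within 117 bases of the start, whereas those of *Stc2* lie at 240 and 231 bases upstream.

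The 3 arrays were similar in overall signal. The 75th percentile of the spots before scaling was 581.1 on the Colon26 array, 625.1 on that of LuM1 and 551.5 on that of NM11, and every array was scaled so that it became 585.9. The scanner software called 49.9% to 53.8% of the probes well above background, and 0 probes were saturated. The lowest scaled signal of a probe called well above background was 26.4 in Colon26 and 20.2 and 19.6 in the LuM1 and NM11 sublines, and a dimmer probe has only a bound. The number of arrays limits the precision. Errors given with signals are those of the scanner software, about 10% of the signal, and a log2 ratio between a pair of bright probes then carries an error of 0.20. They leave out the spread between cultures, which 1 array per line cannot give.

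The labelled tissue was only partly visible in marker genes. Of 12 intestinal epithelial markers, 7 were well above background on no array, among them *Cdh1*, *Krt18*, *Krt19* and *Vil1*, and the summed signal of the list was 1269 in Colon26, 522 in LuM1 and 495 in NM11. Of 8 fibroblast markers, 6 were well above background on all 3 arrays, with sums of 168692, 116123 and 204453 in that order of lines. These sums hide opposite differences in LuM1 over Colon26, with a log2 ratio of -10.24 for *Col1a2* and of at least 10.02 for *Dcn*. Of 6 leukocyte markers, 4 were on all 3 arrays, with sums from 5812 in NM11 to 13343 in LuM1, while *Ptprc* was on none. *Cd68* alone went from 172 in Colon26 to 5258 in LuM1, while *Csf1r* was at 683 and 691 and *Cd3e* at 628 and 509.6. Of 5 endothelial markers, *Pecam1* and *Cd34* were on all 3 and *Cdh5*, *Kdr* and *Tek* on none. The part of these differences in the values below was not tested. In total RNA, fewer cells with a transcript and less of it per cell cannot be told apart.

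All 10 genes were well above background on at least 1 array, and 8 on all 3. *Adm* was below this limit in Colon26, and *Stc2* in both sublines. Among the 8 genes seen in every line, 7 had their lowest signal in NM11, as did 26.3% of the 12249 named genes that passed the same limit on every array. *Higd1a*, the exception, was lowest in LuM1. The highest signal lay in LuM1 for 6 of the 8, against 29.1% of those named genes, and in Colon26 for *Bnip3* and *Higd1a*, against 38.2%. For *Ankrd37* and *Bnip3* the order of LuM1 and Colon26 was within the scanner error and turned in some settings.

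**Figure D2:**
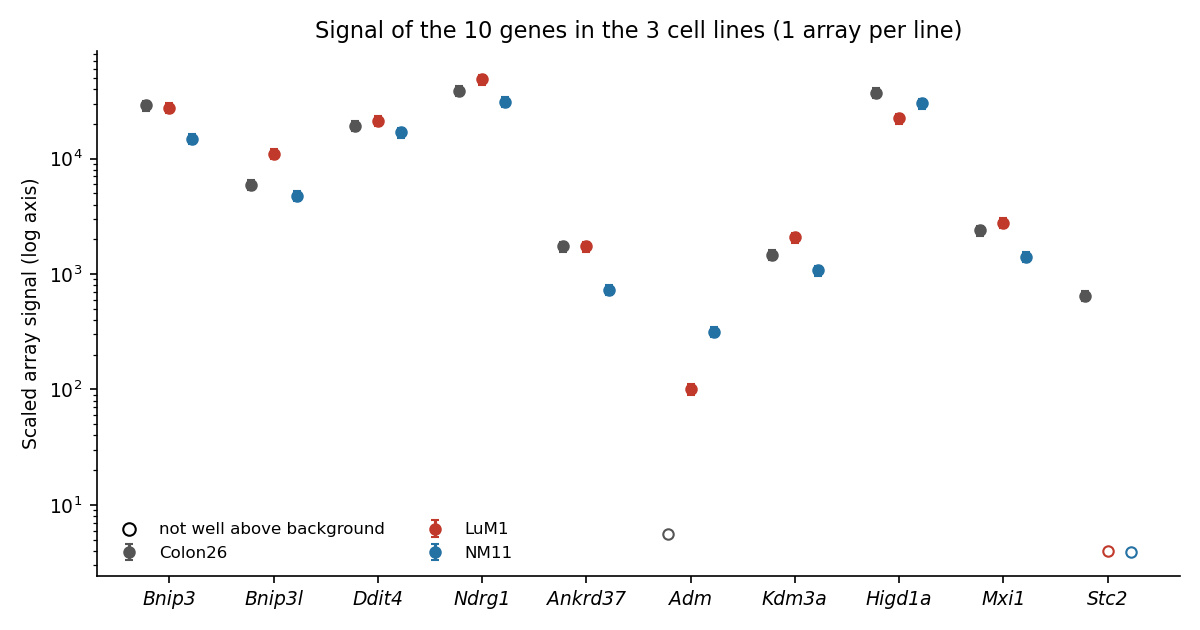
Scaled array signal (log axis) of the 10 genes in Colon26, LuM1 and NM11, 1 array per line, with bars for the scanner software's error and open points for probes not well above background. The signals of 7 genes are lowest in NM11, *Adm* is dim in Colon26 only, and *Stc2* is bright in Colon26 only. Heights are compared within a gene, since the probes differ.

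Among the mitochondrial genes, the mitophagy receptor *Bnip3* (NM_009760) had a scaled signal of 28856 ± 2886 in Colon26, 27546 ± 2755 in LuM1 and 14760.1 ± 1476 in NM11. Colon26 and LuM1 did not differ beyond the scanner error, and NM11 lay below both. The log2 ratio was -0.07 ± 0.20 for LuM1 over Colon26, -0.97 ± 0.20 for NM11 over Colon26 and 0.90 ± 0.20 for LuM1 over NM11. The first of these was above 0 without scaling between arrays, with scaling to *Hprt*, with quantile normalization and in the value table of the authors, where it reached 0.38.

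The related receptor *Bnip3l* (NM_009761, also called Nix) was ordered differently. Its brighter probe gave 5958 ± 596 in Colon26, 10985 ± 1098 in LuM1 and 4734 ± 473 in NM11, so that LuM1 stood above both other lines. LuM1 was 1.84-fold higher than Colon26 and 2.32-fold higher than NM11 (log2 ratio 1.21 ± 0.20), and NM11 was 1.26-fold lower than Colon26. The dimmer probe, at 1951, 3588 and 1588, gave nearly the same ratios of 1.84-fold and 2.26-fold for LuM1, and 1.23-fold lower for NM11.

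*Higd1a* (NM_019814) was ordered differently again, with 37351 ± 3735 in Colon26, 22320.1 ± 2232 in LuM1 and 30141 ± 3014 in NM11. It was the only 1 of the 8 genes that was lower in LuM1 than in both other lines, by 1.67-fold against Colon26 and 1.35-fold against NM11. The log2 ratios were -0.74 ± 0.20 and -0.43 ± 0.20. With scaling to *Hprt* the second of these turned to 0.16, where the median of all named genes was 0.48.

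Of the genes that act on growth signalling and transcription, the mTORC1 inhibitor *Ddit4* (NM_029083) varied least. Its signal was 19170.5 ± 1917 in Colon26, 21352 ± 2135 in LuM1 and 16840.5 ± 1684 in NM11. Neither subline differed from Colon26 beyond the scanner error, with log2 ratios of 0.16 ± 0.20 for LuM1 and -0.19 ± 0.20 for NM11. LuM1 was 1.27-fold above NM11 (0.34 ± 0.20).

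The MYC antagonist *Mxi1* (NM_001008542) gave 2389.8 ± 239 in Colon26, 2794 ± 279 in LuM1 and 1415 ± 142 in NM11. NM11 was 1.69-fold below Colon26 and 1.97-fold below LuM1. LuM1 and Colon26 lay closer together, with a log2 ratio of 0.23 ± 0.20.

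The histone demethylase gene *Kdm3a* (NM_173001) showed the same order, at 1470.0 ± 147 in Colon26, 2075 ± 208 in LuM1 and 1076 ± 108 in NM11. Each step in that order exceeded the scanner error. LuM1 was 1.41-fold above Colon26 and 1.93-fold above NM11, and NM11 was 1.37-fold below Colon26.

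*Ndrg1* (NM_008681) was also ordered LuM1, Colon26, NM11, at 48551 ± 4855, 38399.6 ± 3840.0 and 31219 ± 3122. The steps were smaller than for *Kdm3a*, with log2 ratios of 0.34 ± 0.20 for LuM1 over Colon26, -0.30 ± 0.20 for NM11 over Colon26 and 0.64 ± 0.20 for LuM1 over NM11.

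*Ankrd37* (NM_001039562) had the widest range of the 8 genes. Its signal was equal in Colon26 and LuM1, at 1733 ± 173 and 1736 ± 174, and 726 ± 72.8 in NM11. NM11 was thus 2.39-fold below both, with log2 ratios of -1.25 ± 0.20 against Colon26 and 1.26 ± 0.20 for LuM1 over NM11. Over the 3 lines, the genes with the most similar pattern of the 12248 others compared were *Tfdp2*, *Gcdh* and *Zfp607b*, at distances of 0.017, 0.039 and 0.086 between log2 signals centred per gene. A pattern over 3 arrays has few ways to differ, and 55 genes lay within a distance of 0.2.

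The secreted factors stood apart from the intracellular genes, since each was dim in at least 1 line. The probe of *Adm* (NM_009627), the vasodilator peptide adrenomedullin, was not well above background in Colon26, at 5.58, and gave 100.4 ± 10.9 in LuM1 and 317 ± 31.9 in NM11. *Adm* was therefore at least 3.80-fold higher in LuM1 and at least 12.0-fold higher in NM11 than in Colon26. It was the sole member of the 10 whose signal was higher in NM11 than in LuM1 by over 2-fold, being 3.15-fold lower in LuM1 (log2 ratio -1.66 ± 0.21).

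*Stc2* (NM_011491), the glycoprotein stanniocalcin 2, had the opposite arrangement. It gave 649.6 ± 65.2 in Colon26 and was not well above background in either subline, at 4.02 in LuM1 and 3.93 in NM11. It was at least 32.2-fold lower in LuM1 and at least 33.1-fold lower in NM11 than in Colon26, and no ratio can be given between the sublines. Of the 398 spots within 10 rows and columns of the *Stc2* probe, 2.26% were likewise well above background in Colon26 only, against 1.89% of all spots. For *Adm* 3.64% of 412 neighbouring spots shared its pattern, against 3.01%.

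The 3 comparisons share arrays with each other and are given side by side. In LuM1 over Colon26, *Adm* was at least 2-fold higher, when 13.1% of the 14182 named genes with a ratio were, and *Stc2* was at least 2-fold lower, when 11.8% were. Of the 8 genes measured on both arrays, 4 were higher and 1 was lower beyond the scanner error, against 30.3% and 44.6% of named genes measured on both, and the median log2 ratio was 0.19, where the median of all named genes was -0.13. In this comparison the count of 1 in each direction was near the background share.

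In NM11 over Colon26, *Adm* was again at least 2-fold higher, against 8.34% of 13832 named genes. *Ankrd37* and *Stc2* were at least 2-fold lower, against 7.89%. All 8 genes measured on both arrays were lower in NM11, 7 of them beyond the scanner error, against 34.9% of named genes, and *Ddit4* within it, with a median log2 ratio of -0.39 against -0.02 over all named genes. All 8 remained below 0 under every scaling, background correction and detection rule tried.

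In LuM1 over NM11, *Bnip3l* and *Ankrd37* were at least 2-fold higher, against 11.1% of 14411 named genes, and *Adm* was at least 2-fold lower, against 8.5%. All 9 genes measured on both arrays differed beyond the scanner error, 7 higher and 2 lower in LuM1, against 30.7% and 42% of named genes. The median log2 ratio was 0.90, against -0.11 over all named genes. *Mxi1*, *Kdm3a* and *Bnip3*, with log2 ratios of 0.98, 0.95 and 0.90, lay just inside 2-fold, and the count of genes past 2-fold depended on the scaling. It was 5 without scaling, with the E1A spike-in RNA as the reference and with quantile normalization, and 6 with scaling to *Hprt* and in the value table of the authors. The share of 11.1% is for the reported scaling and is not given for these settings, where the median of all named genes moved as well.

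**Figure D3:**
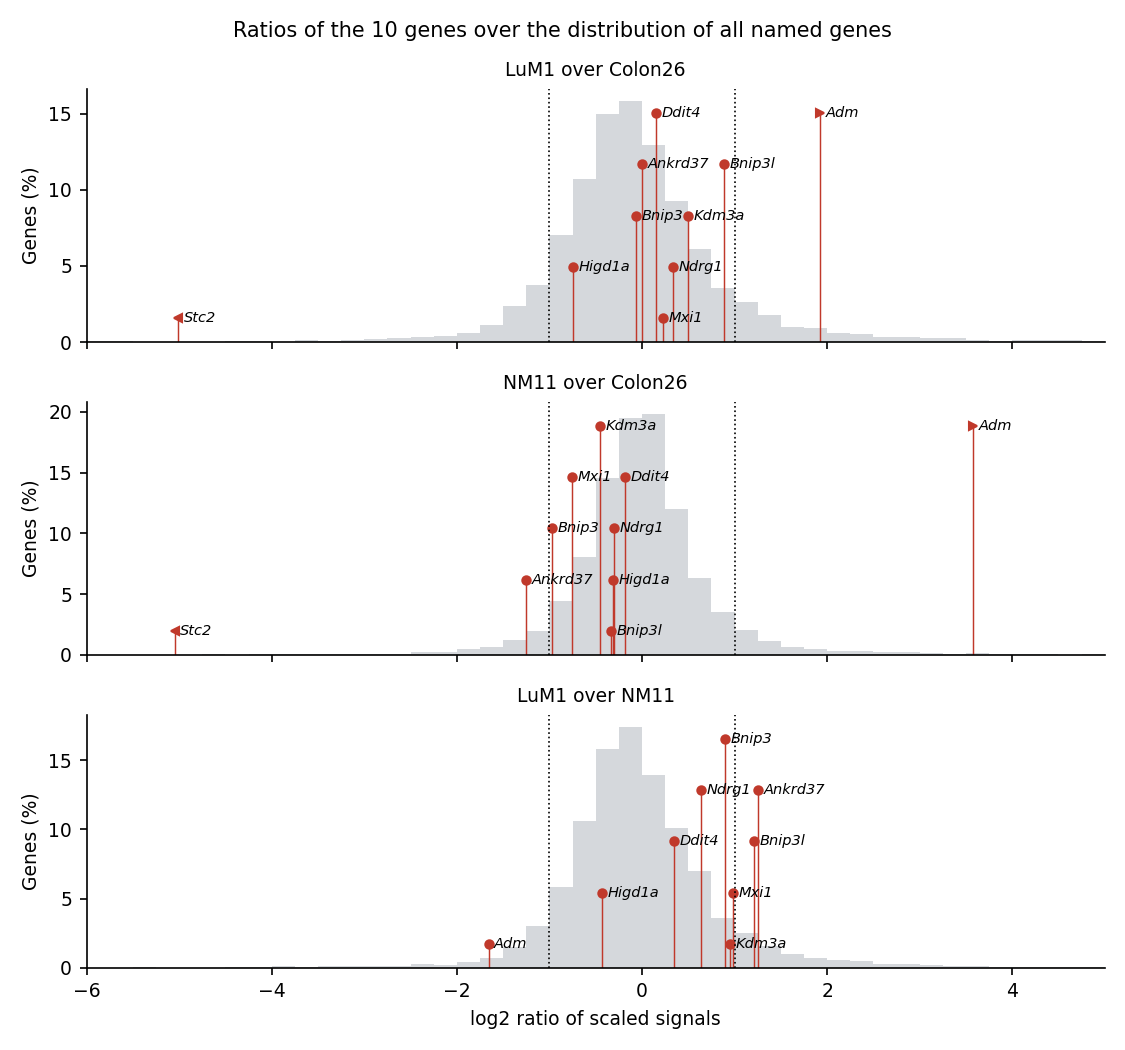
Log2 ratios of the 10 genes (red, arrowheads for bounds) over the distribution of all named genes measured on both arrays (grey bars, percent of genes), for LuM1 over Colon26, NM11 over Colon26 and LuM1 over NM11. Heights of the red markers only separate the names, dotted lines mark 2-fold, and ratios beyond the axis are not drawn. In NM11 over Colon26, the 8 measured genes all lie below 0, and in LuM1 over NM11, 7 of 9 lie above 0.

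**Figure D4:**
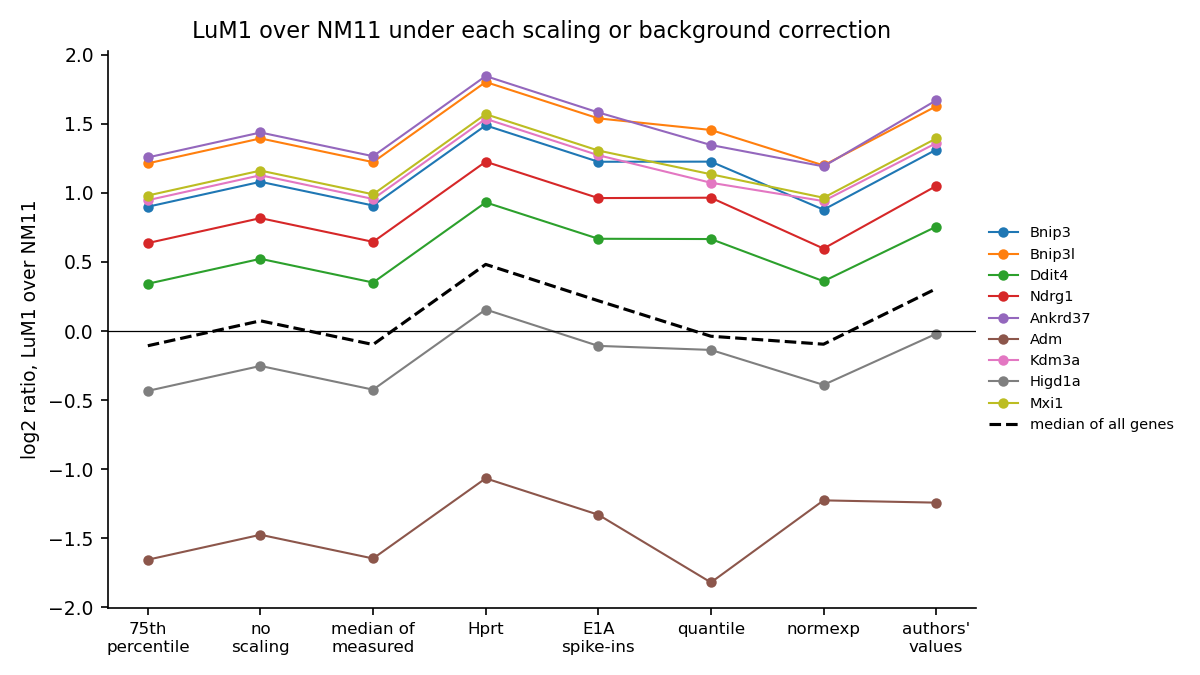
Log2 ratios of 9 genes in LuM1 over NM11 under the reported scaling and 7 alternatives, with the median of all named genes as a dashed line. The lines of 7 genes lie above the median of all genes in each setting, and *Adm* lies below it in each. A single factor per array cannot change this, so only quantile normalization and the normexp correction could. *Higd1a* passes 0 with scaling to *Hprt*, at 0.16, but stays below the median of all genes there, 0.48.

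Scaling moved all genes together. Relative to the reported setting, the median of all named genes in LuM1 over NM11 shifted by 0.59 with scaling to *Hprt*, by 0.41 in the authors' value table and by 0.33 with the E1A spike-ins. A single factor per array moves the described genes by the same amount, so their distance from the median of all named genes is fixed by construction in those settings. It was 1.01 in LuM1 over NM11, 0.32 in LuM1 over Colon26 and -0.37 in NM11 over Colon26 on the log2 scale. Without the filter on dim probes, which could change it, the distance was 0.70, 0.53 and -0.14. All shares of named genes past 2-fold are for the reported setting. Counts of listed genes under other settings, here and below, have no matching share and include the move of all genes.

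Of 26 other HIF targets outside glycolysis, 22 were measured on both arrays in LuM1 over NM11, with a median log2 ratio of 0.26. Of the 22, 16 were higher (72.7%), as were 7 of 9 described genes and 43.0% of named genes. Among the 24 with a ratio, 7 were at least 2-fold higher and 2 at least 2-fold lower, against 11.1% and 8.5% of named genes. The count of 7 ran from 4 with the normexp correction to 10 with scaling to *Hprt*. For NM11 over Colon26 the 2-fold counts were 2 and 4 of 23, against 8.34% and 7.89% of named genes. The median over 20 genes was -0.34. The count of 4 became 9 with scaling to *Hprt*, where the median was -0.83, and 8 with E1A. Of the 20 genes seen in every line, 9 were lowest in NM11, against 26.3% of named genes. For LuM1 over Colon26 the 2-fold counts were 5 and 3 of 24, against 13.1% and 11.8% of named genes, and 11 and 2 in the authors' value table. The median over 21 genes was 0.12.

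Of the 4 genes named from this list, 3 were not well above background in 1 line and *Car9* was measured in all. *Rora*, a nuclear receptor gene, had 6.10 (not well above background) in Colon26, 2131 ± 213 in LuM1 and 401 ± 40.3 in NM11, so that LuM1 exceeded Colon26 by at least 80.6-fold by its brightest of 3 probes and at least 2.92-fold by its dimmest. *Car9*, which encodes the cell-surface carbonic anhydrase IX, ran the other way, at 6272 ± 627 in Colon26, 110.1 ± 11.8 in LuM1 and 564 ± 56.5 in NM11. It was 57.0-fold lower in LuM1 than in Colon26, and 17.4-fold lower by its other probe. Like *Stc2*, *Car9* was highest in Colon26. *Egln3*, a HIF prolyl hydroxylase gene, gave 452 ± 45.5, 724 ± 72.6 and 9.37 (not well above background), a difference of at least 37.0-fold between LuM1 and NM11. *Ak4*, an adenylate kinase gene, was, like *Adm*, dim in Colon26, at 5.34, and seen in LuM1 and NM11, at 273 ± 27.6 and 210.0 ± 21.4. Its other probe, at 6.20, 28.9 and 63.6 in Colon26, LuM1 and NM11, put LuM1 2.20-fold below NM11, so that the order of the sublines depends on the probe.

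Most glycolytic HIF targets lay within 2-fold between the lines under the reported scaling. In LuM1 over NM11, 14 of the 18 genes were higher (77.8%), against 43.0% of named genes, and the median log2 ratio was 0.40. Beyond the scanner error, 13 were higher and 0 were lower. By at least 2-fold, 2 were higher and 0 were lower, against 11.1% and 8.5% of named genes. The count of 2 ran from 1 with the normexp correction to 9 with scaling to *Hprt*. The 2-fold counts for LuM1 over Colon26 were also 2 and 0, against 13.1% and 11.8% of named genes. The median there was 0.13 over 17 genes. For NM11 over Colon26, 1 of 18 was at least 2-fold higher and 1 at least 2-fold lower, against 8.34% and 7.89% of named genes. The median over 17 genes was -0.20. With scaling to *Hprt*, 0 were higher and 4 were lower (median -0.69), and with E1A 0 and 3 (median -0.53). Of the 17 genes seen in every line, 11 (64.7%) were lowest in NM11, against 26.3% of named genes. *Pfkfb3* and *Pfkfb4*, which set the level of fructose 2,6-bisphosphate, were 2.57-fold and 2.42-fold higher in LuM1 than in NM11, and *Aldoc*, an aldolase gene, was 2.42-fold higher in LuM1 than in Colon26. The other probes of *Pfkfb3* and *Pfkfb4* were dim on all 3 arrays, and that of *Aldoc* in Colon26 and LuM1.

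**Figure D5:**
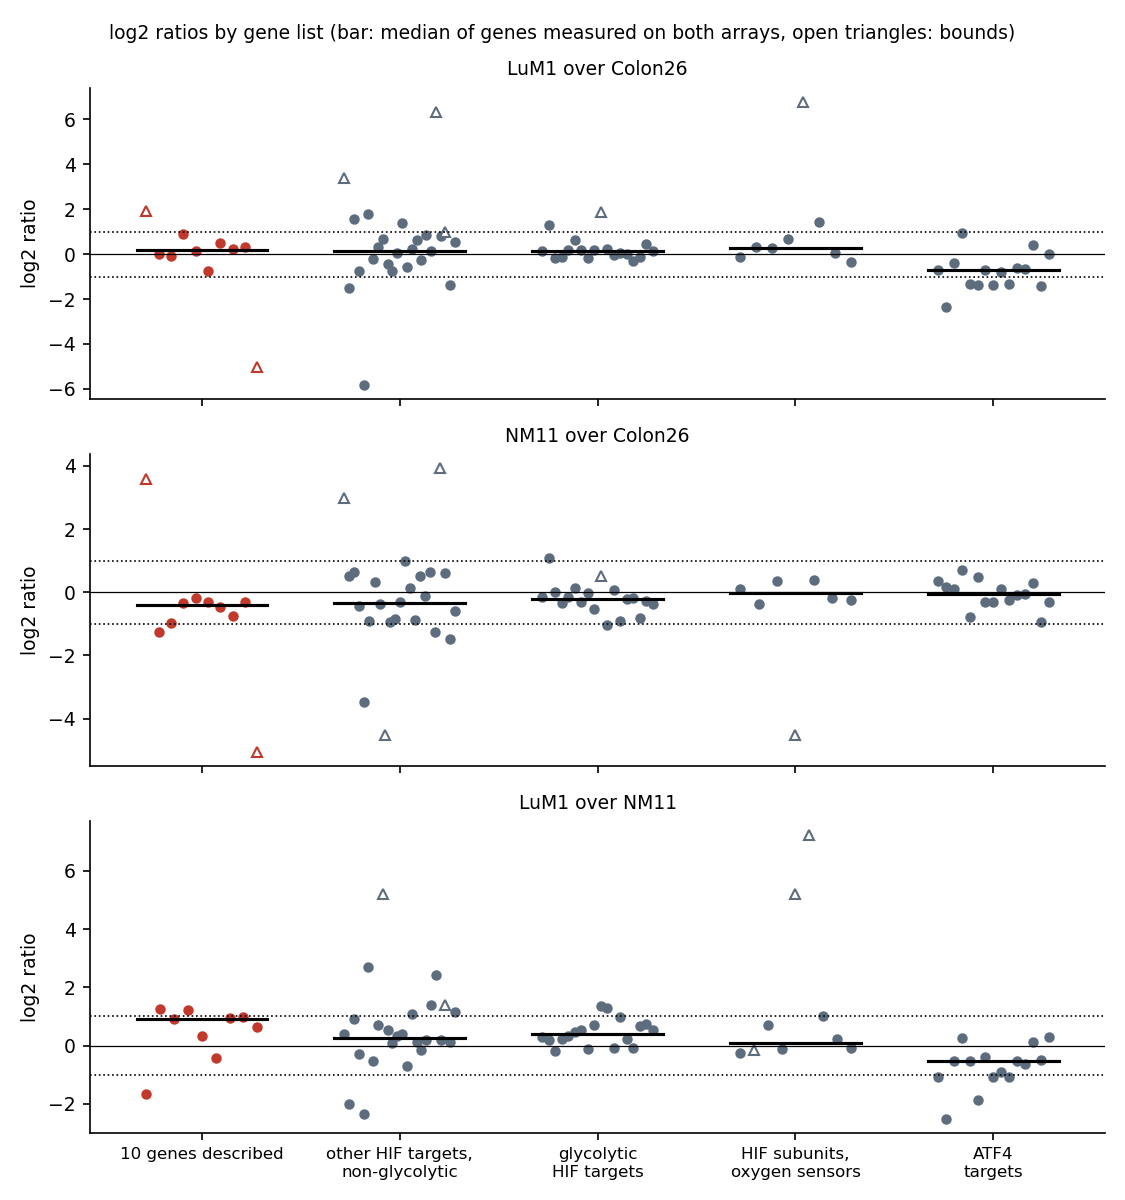
Log2 ratios of single genes in 5 gene lists for the 3 comparisons, with filled points for genes measured on both arrays, open triangles for bounds, black bars for the median of measured genes and dotted lines at 2-fold. The described genes (red) have medians of 0.19, -0.39 and 0.90 from top to bottom. The ATF4 targets, a list that includes *Atf4* itself, have medians of -0.72, -0.06 and -0.54.

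Of the 10 genes that form HIF or sense oxygen, 9 had a ratio in LuM1 over NM11. Past 2-fold were 3, all of them higher, against 11.1% of named genes. This count was 2 with the normexp correction or the percentile over distinct probes. It was 4 with scaling to *Hprt* or E1A, in the authors' value table, with the looser detection rule and without the filter on dim probes. *Hif1a* gave 4011 ± 401 in Colon26, 10688 ± 1069 in LuM1 and 5246 ± 525 in NM11, so that LuM1 was 2.66-fold above Colon26 and 2.04-fold above NM11. These values rest on 1 named probe, whereas the paper's comparison of LuM1 and Colon26 used 3 for *Hif1a*. *Epas1*, which encodes HIF-2α, was well above background only in LuM1, at 2923 ± 292 against 15.0 and 4.29, at least 111-fold and 149-fold higher by its single probe. Of the spots around that probe, 5.29% shared its pattern, against 3.49% of all spots. The third was *Egln3*, which is also in the list above. *Hif1a* and *Epas1* were also at least 2-fold higher in LuM1 over Colon26, against 13.1% of named genes, and 0 of the 10 genes were lower by 2-fold, against 11.8%. The median log2 ratio over 7 genes was 0.25. The sole gene past 2-fold in NM11 over Colon26, of 7 with a ratio, was *Egln3*, lower by at least 23.1-fold. At least 2-fold lower were 7.89% of named genes. The median over 6 genes was -0.04. The median over 6 genes in LuM1 over NM11 was 0.08, and it was 0.67 with scaling to *Hprt* and 0.49 in the authors' value table. These are levels of messenger RNA, whereas HIF-α is set largely by the stability of the protein, which the arrays do not measure.

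Of 9 paralogs of the described genes seen on all 3 arrays, 4 were highest in LuM1, against 29.1% of named genes. Of 15 paralogs, 13 had a ratio in LuM1 over Colon26, and 6 were past 2-fold, all higher (median log2 ratio 0.42 over 9 genes). In LuM1 over NM11, 13 had a ratio and 6 were past 2-fold, all higher (median 0.20 over 10 genes). The shares of named genes at least 2-fold higher were 13.1% and 11.1%. For NM11 over Colon26, 1 of 10 was higher, against 8.34%, and 0 were lower, against 7.89%. The median of 0.03 over 9 genes was below 0 without scaling and with scaling to *Hprt* or E1A. With the normexp correction the counts of 6 became 3 in both comparisons. *Ndrg2* was well above background in LuM1 only, at 542 ± 54.3 against 12.3 in Colon26 and 8.52 in NM11, at least 20.5-fold and 27.7-fold higher. *Ndrg4* gave 5.57 (not well above background), 365 ± 36.8 and 29.1 ± 5.05 by 1 probe, while its other probe was dim on all 3 arrays. *Ndrg3* lay within 2-fold, at 1208, 1613 and 1234.

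*Adm2* (intermedin) was seen in LuM1 only, at 168 ± 17.3, and exceeded Colon26 by at least 6.37-fold and NM11 by at least 8.60-fold, unlike *Adm*, which was brightest in NM11. *Stc1*, the paralog of *Stc2*, was also seen in LuM1 only, at 51.6 ± 7.15, where *Stc2* was dim. The MAX partners *Mxd1* and *Mxd4* were highest in LuM1, at 134, 307 and 133 for *Mxd1* and at 106, 229 and 79.7 for *Mxd4* in Colon26, LuM1 and NM11. *Mxd3* instead was highest in NM11, at 237, 496 and 838. *Mnt*, *Kdm3b*, *Jmjd1c*, *Higd1b* and *Higd2a* lay within 2-fold in every comparison, and *Ddit4l* and *Higd1c* were well above background on no array.

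Genes whose products work with the described ones went both ways. Of 22 such genes, 21 had a ratio in LuM1 over Colon26. By 2-fold or more, 2 were higher and 3 lower, against 13.1% and 11.8% of named genes (median log2 ratio 0.16 over 19 genes). In LuM1 over NM11, 2 of 21 were higher and 1 was lower, against 11.1% and 8.5% (median -0.17 over 19 genes). For NM11 over Colon26, 1 of 19 was higher and 1 was lower, against 8.34% and 7.89%, with a median of 0.03 over 19 genes. Both of these last medians changed sign without scaling and with scaling to *Hprt* or E1A, and the former also in the authors' value table. *Calcrl*, the gene of the receptor that adrenomedullin needs, was well above background in none of the lines, at 9.37, 8.30 and 14.4. *Ramp3*, a receptor-modifying subunit, gave 3495 ± 349.6 in Colon26, 589.9 ± 59.2 in LuM1 and 3534 ± 353 in NM11, 5.92-fold and 5.99-fold lower in LuM1. The 2 probes of *Ramp2* disagreed, the brighter at 10.9, 935 and 18.8 and the other at 275, 123 and 4.40 in the same order of lines, so that its direction in LuM1 over Colon26 depends on the probe. *Myc*, which *Mxi1* opposes, was 2.25-fold lower in LuM1 than in Colon26, at 2657 ± 266 against 5965 ± 597, and 5219 ± 522 in NM11. *Sgk1*, a kinase gene whose product phosphorylates NDRG1, gave 6852 ± 685, 1058 ± 106 and 2015 ± 202, 6.48-fold lower in LuM1 than in Colon26.

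*Ddit4* and *Stc2* are also induced by the stress factor ATF4, and a list of 15 genes, *Atf4* itself and targets of ATF4, was set beside them. *Atf4* gave 139977 in Colon26, 105427 in LuM1 and 151693 in NM11. In LuM1 over Colon26, 0 of the 15 were at least 2-fold higher and 6 at least 2-fold lower, against 13.1% and 11.8% of named genes. The median log2 ratio was -0.72. In LuM1 over NM11, 0 were higher and 5 were lower, against 11.1% and 8.5% of named genes. The median of -0.54 reached 0.05 with scaling to *Hprt*. The count of 6 became 1 in the authors' value table, and the count of 5 became 2 there, without scaling, with quantile normalization and with scaling to *Hprt* or E1A. For NM11 over Colon26, 0 were past 2-fold in either direction, against 8.34% higher and 7.89% lower among named genes, and the median was -0.06. LuM1 was the lowest of the 3 lines for 12 of the 15 under the reported scaling, against 45.7% of all named genes seen in every line. *Atf3* gave 1597 ± 159.8 in Colon26, 314 ± 31.8 in LuM1 and 1789.7 ± 179 in NM11, and *Ddit3* (CHOP) gave 5359 ± 536, 2065 ± 207 and 7464 ± 746. The pseudokinase gene *Trib3* and the stress gene *Nupr1* were 2.68-fold and 2.61-fold lower in LuM1 than in Colon26. *Ddit4* had a LuM1 signal that was not below Colon26, and *Stc2* was well above background in Colon26 only. Of the 15 genes, 8 were highest in Colon26, 2 in LuM1 and 5 in NM11, against 38.2%, 29.1% and 32.7% of named genes. Whether ATF4 has a part in the levels of *Ddit4* or *Stc2* was not tested.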

How the data were processed

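The authors deposited scanner output for 3 single-colour mouse arrays, 1 per cell line, made per the submitters' processing notes with Agilent Feature Extraction 11.5.1.1. It holds the intensity of each spot, after background subtraction and detrending, linear and not scaled across arrays, and flags of 0 or 1 that the authors deposited for outliers, saturation and spots well above background. The deposited value table held these intensity values multiplied by a constant (Colon26 0.654, LuM1 0.829, NM11 0.706), with column medians of 22.6, 35.4 and 22.2, and its normalization is not given in the sources used here. Samples were grouped by their titles.

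Outlier spots (137 for Colon26, 74 for LuM1 and 99 for NM11) and controls were left out. The spots of the 300 repeated probes were averaged (median SD 0.035, 0.040 and 0.036 on the log2 scale). The 75th percentile of every array was set equal, taken over all non-control spots, with outliers included and repeats not averaged. Probes were named through RefSeq accessions of GRCm38.p6 (32994 of 56605, 58.3%). The array was designed on another build, so only the promoter table's own coordinates are printed. The brightest probe stood for a gene. A probe not well above background on an array entered as a bound, against its own signal or the lowest signal well above background on that array, whichever was higher. No ratio was given where both were dim or the bound fell under 1.

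With 1 array per line there was no test, and no p-value is given. The members and lists were chosen with earlier results of these data known. Named were all members, up to 4 genes per list at least 2-fold apart in LuM1 over Colon26 or LuM1 over NM11, in order of size, all paralogs well above background on any array, and the 3 genes nearest to the member with the widest range. *Calcrl*, *Ddit4l*, *Higd1c*, *Csf1r*, *Cd3e*, *Pecam1*, *Cd34* and the markers without a ratio were named after their values were seen. Tried as alternatives were 7 other scalings or background corrections, 2 detection rules, the mean over probes, outlier spots kept and a 1.5-fold threshold, and 1 more, the percentile over distinct probes, was added after seeing the data. The normexp correction (offset 50) used the median brightness of a spot. Scripts were tested on simulated data. Software was matplotlib 3.10.9, scipy 1.17.1, pandas 2.3.3 and numpy 2.4.6 under Python 3.11.15, and limma 3.58.1 under R 4.3.3.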

Additional observations from a re-analysis of the deposited data

How the results depend on the processing

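Over 13 alternatives, 105 of 125 values of the members' medians and counts moved by less than the scanner error (medians) or by at most 1.5 times (counts). No median changed sign, and a count has no direction to change. The median log2 ratio in LuM1 over Colon26 was 0.42 with quantile normalization and 0.64 in the authors' values, against 0.19. The median in LuM1 over NM11 was 1.49 with scaling to *Hprt*, 1.23 with the E1A spike-ins and 1.31 in the authors' values, against 0.90. The median in NM11 over Colon26 was -0.88 with *Hprt* and -0.72 with E1A, against -0.39. These shifts come from the scaling factors, which move all genes alike, except under quantile normalization, where the cause was not tested. The number of members past 2-fold upward in LuM1 over Colon26 went from 1 to 2 with quantile normalization, in the authors' values and at 1.5-fold, *Bnip3l* being the second. The number higher in LuM1 over NM11 was 5 without scaling, with E1A and with quantile normalization, and 6 with *Hprt*, in the authors' values and at 1.5-fold, against 2. The number lower in LuM1 over Colon26 was 2 at 1.5-fold, against 1, and the number lower in NM11 over Colon26 was 4 with *Hprt*, with E1A and at 1.5-fold, against 2, and 3 without scaling. These counts have no matching share of named genes, at 1.5-fold or under the other scalings. The median of all named genes in NM11 over Colon26 was itself -0.51 with *Hprt* and -0.35 with E1A, against -0.02. *Adm* and *Stc2* kept their calls under every scaling, background correction and detection rule, and where the detection rule was kept their bounds in LuM1 over Colon26 ran from 1.08 to 2.37 and from -5.12 to -3.69 (log2). Taken at face value without the filter, the log2 ratios were 4.17 and -7.33, against signals that were not well above background. Of 348 values of single genes, 80 moved by more than the scanner error. No paired analysis was possible because each cell line has 1 array, and for the same reason no array could be left out. Signals near background limit *Adm* in Colon26 and *Stc2* in the sublines to bounds.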
